A study of Mus musculus with 10 samples.

Results

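The immediate early genes and the Klf genes of purified microglia were followed across the midbrain (Mdb) and striatum (Str) libraries of healthy mice. They comprised 10 genes, chosen by symbol from the 53715 genes counted: the Krüppel-like factors Klf2, Klf4 and Klf6, and the immediate early genes Fos, Jun, Junb, Egr1, Atf3, Dusp1 and Ier2. All 10 were counted in every library. The choice was made with the midbrain and striatum values of these libraries known, so the difference between the regions is given below as a description of the 10 genes, without a test.

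Untreated C57BL/6 mice aged 3 months were perfused with cold saline, the brain regions were digested with papain, and cells were enriched by Percoll and bound to CD11b beads, so the fraction could hold any cell that carries CD11b. Their poly-A RNA was sequenced in 2 experiments. The pilot cohort (Exp 1) had 2 midbrain and 2 striatum libraries, and the second cohort (Exp 2) had 2 of each whose labels named a single region. Each mouse gave both regions, since there were as many mice as libraries of a region, but the labels do not tie a library to its mouse, so tests over both regions count the regions of a mouse as separate samples. A further 2 libraries of Exp 2, titled Mdb 2 and Str 2, carried labels that each named both regions, so they were placed in no group and their values are given apart.

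Immediate early genes are transcribed within minutes of a stimulus from factors that are already present in the cell, chiefly the serum response factor with its ETS partners and CREB, which are activated by the MAP kinases. Their products are mostly transcription factors, with phosphatases that switch the kinases off again, and their RNA is short-lived. Klf2, Klf4 and Klf6 encode zinc-finger factors that bind GC-rich sites and that can themselves be induced in this rapid way, while Klf2 and Klf4 also mark resting endothelium and cells of the monocyte lineage. In microglia the immediate early genes are known to respond to enzymatic dissociation of the tissue.

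Total counts of the assigned libraries ranged from 575709 in replicate 3 of the striatum in Exp 2 to 8463782, a 14.7-fold range. All 11 microglia markers examined (P2ry12, Tmem119, Cx3cr1 and others) were detected, with summed levels between 14186 and 28246 CPM, the reads of a gene scaled to the size of its library with TMM factors, in the 10 libraries. Summed markers of monocytes were higher in the midbrain, at 367 and 442 CPM against 157 and 191 CPM in Exp 1 and at 813 and 3366 CPM against 177 and 237 CPM in Exp 2, with the highest value in replicate 1 of the midbrain. Summed markers of oligodendrocytes were 5799 to 14742 CPM and those of astrocytes 741 to 3306 CPM in the 10 libraries. The fraction thus also held RNA of cells other than those with CD11b, whose part in the levels below was not tested. Whether fewer cells of a type or less RNA per cell lies behind a lower level cannot be told apart in these bulk libraries. CPM values were not divided by gene length and the reads come from the 3′ ends of transcripts, so the levels of different genes are not compared with each other.

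RefSeq promoter sequence was at hand for 8 of the 10 genes, and 7 are shown. The window of Atf3 lay wholly inside the gene as it was annotated for the counting. Its sequence is therefore not printed, though its motifs are counted below. Each line gives the bases upstream of the RefSeq start site in GRCm38.p6, from position -250 to the last base outside the gene as it was annotated for the counting, 5′ to 3′ on the strand of the gene. Capitals mark TGACG, the core of the site bound by CREB and ATF factors, and the MEF2 site, each on either strand.

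Klf2 (chr8:72318812-72319032, plus strand): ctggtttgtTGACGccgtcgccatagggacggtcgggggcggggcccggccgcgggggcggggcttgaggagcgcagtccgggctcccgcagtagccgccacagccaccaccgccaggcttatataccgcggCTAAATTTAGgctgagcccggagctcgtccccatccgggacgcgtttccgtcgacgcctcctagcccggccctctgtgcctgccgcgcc

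Klf4 (chr4:55532476-55532725, minus strand): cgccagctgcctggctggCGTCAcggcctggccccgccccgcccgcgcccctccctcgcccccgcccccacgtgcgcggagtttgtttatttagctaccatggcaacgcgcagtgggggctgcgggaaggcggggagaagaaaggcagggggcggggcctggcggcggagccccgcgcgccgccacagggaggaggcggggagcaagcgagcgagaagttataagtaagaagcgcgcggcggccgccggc

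Klf6 (chr13:5861239-5861481, plus strand): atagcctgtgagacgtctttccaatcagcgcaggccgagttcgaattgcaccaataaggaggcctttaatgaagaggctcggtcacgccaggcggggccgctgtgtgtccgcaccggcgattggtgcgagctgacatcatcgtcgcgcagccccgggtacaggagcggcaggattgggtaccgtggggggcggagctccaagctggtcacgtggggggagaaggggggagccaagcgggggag

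Fos (chr12:85473640-85473889, plus strand): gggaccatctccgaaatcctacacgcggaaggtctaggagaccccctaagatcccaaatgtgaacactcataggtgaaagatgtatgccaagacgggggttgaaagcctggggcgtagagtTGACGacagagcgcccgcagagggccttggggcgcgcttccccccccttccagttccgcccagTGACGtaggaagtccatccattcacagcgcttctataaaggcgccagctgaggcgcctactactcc

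Jun (chr4:95052223-95052472, minus strand): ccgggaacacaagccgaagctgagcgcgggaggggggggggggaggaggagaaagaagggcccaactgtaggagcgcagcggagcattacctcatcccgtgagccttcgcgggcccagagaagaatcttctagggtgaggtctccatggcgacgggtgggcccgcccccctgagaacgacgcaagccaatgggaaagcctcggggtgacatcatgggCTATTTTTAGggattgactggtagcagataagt

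Junb (chr8:84978749-84978998, minus strand): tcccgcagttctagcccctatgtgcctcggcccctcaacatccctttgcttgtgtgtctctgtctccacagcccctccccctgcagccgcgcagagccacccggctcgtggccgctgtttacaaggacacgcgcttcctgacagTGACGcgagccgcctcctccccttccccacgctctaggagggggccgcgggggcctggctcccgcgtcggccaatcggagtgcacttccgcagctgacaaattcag

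Dusp1 (chr17:26508520-26508722, minus strand): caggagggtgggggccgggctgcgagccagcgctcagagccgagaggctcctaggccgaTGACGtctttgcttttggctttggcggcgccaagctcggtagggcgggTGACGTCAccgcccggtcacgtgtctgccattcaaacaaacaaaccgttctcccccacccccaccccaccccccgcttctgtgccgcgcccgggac

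TGACG was found in 6 of the 8 promoters (Klf2, Klf4, Fos, Junb, Dusp1 and Atf3) and in 17.8% of all 32851 promoters of the same length. The full palindrome TGACGTCA, which contains TGACG on both strands, was found in Dusp1 alone among the 8, from position -143 to -136, and in 1.55% of all promoters. The MEF2 site was found in Klf2 (position -118 to -109), Jun (-33 to -24) and Atf3, and in 0.508% of all promoters. The GC box GGGCGG, the kind of site that Klf factors bind, was found in 7 of the 8 (Junb had none) and in 32.7% of all. Neither the AP-1 site TGANTCA (6.75% of all) nor the CArG box of the serum response factor (1.47% of all) was found in the 8 windows. Only exact matches were counted, so variants such as the TGACATCA in the printed Jun and Klf6 windows were left out. Bases farther upstream and the promoters of Egr1 and Ier2 were not searched. This absence therefore holds for exact sites in the windows only. By exact matches, Klf2 thus shared a MEF2 site with Jun, Klf2 and Klf4 shared TGACG with Fos, and Klf6 held neither. The GC box was found in all 3 Klf genes.

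Klf2, which encodes a factor known for restraining inflammatory activation of monocytes and endothelium, was measured at 552 and 572 CPM in the midbrain libraries of Exp 1 and at 224 and 360.4 CPM in its striatum libraries. In Exp 2 its levels were 1456 CPM (replicate 1) and 999 CPM (replicate 3) in the midbrain and 272 and 216 CPM in the striatum. Every midbrain library lay above every striatum library of its experiment, and the gap was widest in Exp 2, where the midbrain levels were higher than in Exp 1 and the striatum levels were not. Averaged over n = 2 libraries, Exp 1 gave 562 ± 13.8 CPM for the midbrain and 292 ± 96.4 CPM for the striatum (mean ± SD), a 1.92-fold difference. In Exp 2 the means were 1227 ± 323 CPM and 244 ± 39.7 CPM (SD, n = 2 each), a 5.04-fold difference.

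Klf4, a factor of monocyte differentiation and of pluripotency, had 359 and 413 CPM in the midbrain and 184 and 212 CPM in the striatum of Exp 1. In Exp 2 it had 972 CPM (replicate 1) and 405 CPM (replicate 3) in the midbrain and 94.5 and 124 CPM in the striatum. The midbrain libraries were again above the striatum libraries in both experiments, but replicate 3 of the midbrain in Exp 2 stood at the level of the Exp 1 midbrain, so the high mean of that group came from replicate 1. The mean levels differed 1.95-fold in Exp 1 and 6.29-fold in Exp 2. The lowest level, in replicate 1 of the striatum in Exp 2, rested on 260 reads, and replicate 3 of that group, the shallowest library, had the fewest reads (71), against 4554 in replicate 1 of the midbrain.

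Klf6, a factor induced by injury and by inflammatory stimuli in macrophages, had 564 and 680.1 CPM in the midbrain and 313 and 451 CPM in the striatum of Exp 1. Its Exp 2 levels were 1917 CPM (replicate 1) and 944 CPM (replicate 3) in the midbrain against 304 and 326 CPM in the striatum. The midbrain libraries stood in the same order as in Klf2, with replicate 1 of the midbrain in Exp 2 highest and all striatum libraries at or below 451 CPM. The difference between the means was 1.63-fold in Exp 1 and 4.54-fold in Exp 2.

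Fos and Jun encode the subunits of the AP-1 factor. Fos had 2339.6 and 2928 CPM in the midbrain and 1711 and 3007 CPM in the striatum of Exp 1, so the groups overlapped. In Exp 2 it had 3471 and 3403 CPM in the midbrain and 1722 and 1585 CPM in the striatum, a 2.08-fold difference of the means with little spread within either group. Jun followed the same course, with 3425 and 4161 CPM against 2767 and 4557 CPM in Exp 1 and with 5056 and 3899 CPM against 2016 and 1848 CPM in Exp 2. For both genes the overlap in Exp 1 came from replicate 2 of the striatum, which was above both midbrain libraries. Part of the Jun exons overlaps the antisense gene Junos and part of Junb overlaps Prdx2, and reads in such stretches cannot be assigned with certainty because counting did not use strand.

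Junb, an AP-1 subunit that can oppose Jun, had the smallest fitted log2 fold change of midbrain over striatum among the 10 genes in each experiment (0.08 in Exp 1 and 0.19 in Exp 2). It had 4025 and 4366 CPM in the midbrain and 3556 and 4502 CPM in the striatum within Exp 1, then 1757 and 2622 CPM against 2006 and 1695 CPM in Exp 2. The groups overlapped in both experiments, and every assigned library of Exp 2 was below every library of Exp 1.

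Egr1, a zinc-finger factor of the growth response, overlapped in Exp 1 with 1879 and 2085 CPM in the midbrain and 1351 and 2511 CPM in the striatum. In Exp 2 it had 3245 CPM (replicate 1) and 1593 CPM (replicate 3) in the midbrain and 1036 and 1362 CPM in the striatum. Atf3, a stress-induced factor that dampens cytokine transcription in macrophages, overlapped likewise in Exp 1, with 1428 and 1699.7 CPM against 958 and 1723 CPM, and had 2198 and 1364 CPM against 767 and 857 CPM in Exp 2. For both genes the midbrain libraries of Exp 2 were apart from the striatum libraries, though replicate 3 of the midbrain exceeded the highest striatum library by little in Egr1.

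Dusp1, the phosphatase that inactivates the p38 and JNK kinases, had 1027 and 1208 CPM in the midbrain and 572 and 1171 CPM in the striatum of Exp 1. In Exp 2 its levels were 1727 and 2282 CPM in the midbrain and 630.5 and 782 CPM in the striatum, a 2.84-fold difference that was the largest among the 7 immediate early genes. Here replicate 3 of the midbrain was the higher library, unlike in the Klf genes. Ier2, a small nuclear protein of the early response, was tighter than the others, with 1463 and 1504 CPM against 881 and 969 CPM in Exp 1 and 867 and 896 CPM against 732 and 636 CPM in Exp 2. Its groups did not overlap in either experiment, and its regional difference was the larger in Exp 1 (1.604-fold against 1.29-fold).

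**Figure D1:**
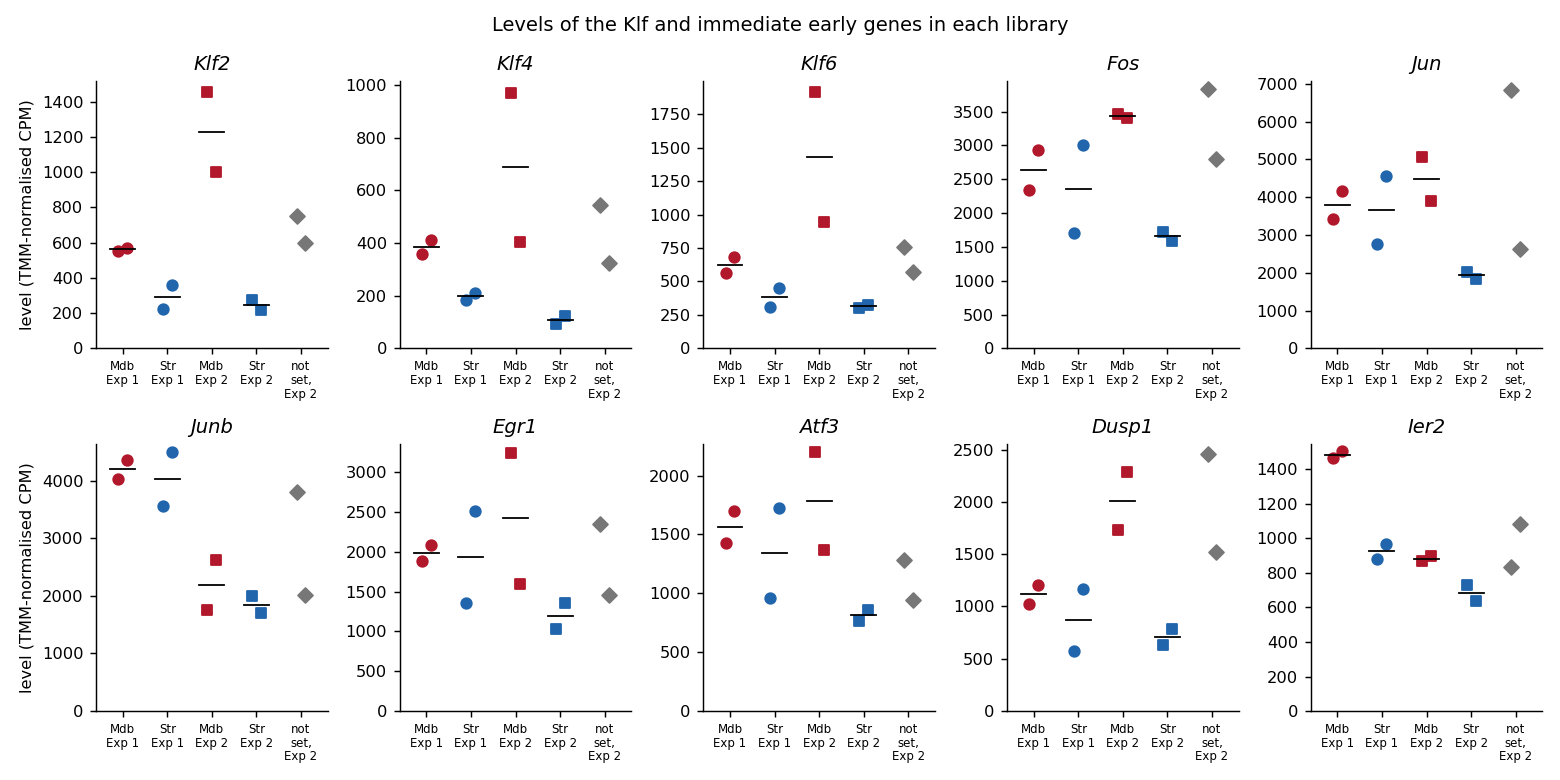
Level of each gene (vertical axis from 0, TMM-normalised CPM) in each of the 10 libraries, grouped on the horizontal axis by region and experiment; circles are Exp 1, squares Exp 2, red midbrain, blue striatum, grey diamonds the 2 libraries whose labels name both regions (Mdb 2 by title on the left), and black lines group means of n = 2. In the assigned libraries, Klf2, Klf4, Klf6 and Ier2 separate the regions in both experiments. Junb and Ier2 are lower in those of Exp 2 than in those of Exp 1 within each region.

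Across the assigned libraries, the midbrain lay above the striatum without overlap in 4 of 10 genes in Exp 1 (Ier2, Klf2, Klf4 and Klf6). It did so in 9 of 10 in Exp 2 (all but Junb) and in 4 of 10 in both experiments. The same held for 19.6% of all genes in Exp 1, 23.8% in Exp 2 and 8.29% in both, and since the genes were chosen with this contrast known, nothing is read from the counts. The fitted log2 fold changes of midbrain over striatum (limma with voom) had a median over the 10 genes of 0.37 in Exp 1, 1.13 in Exp 2 and 0.67 over both, beside 0.02, -0.00096 and 0.04 over all genes fitted. The 3 Klf genes ranged from 0.73 (SE 0.22) to 0.99 (SE 0.24) in Exp 1 and from 2.09 (SE 0.33) to 2.58 (SE 0.41) in Exp 2. The 7 immediate early genes ranged from 0.08 to 0.69 and from 0.19 to 1.499. The Klf genes thus held the 3 largest changes in each experiment. Whether the regional change differs between the experiments was not tested for these genes.

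The Exp 1 values of the immediate early genes other than Ier2 rested on single striatum libraries. For Ier2 the 4 fits that each left out 1 library of Exp 1 gave 0.61 to 0.78. Without replicate 1 of the striatum in Exp 1, the log2 fold changes of Fos, Jun, Junb, Egr1, Atf3 and Dusp1 in Exp 1 were all negative, between -0.35 and -0.077, and the median of the 10 genes was -0.092. Without replicate 2 that median was 0.76. The Klf changes in Exp 1 kept their sign in all 4 fits that each left out 1 library, with values from 0.64 to 1.36 for Klf2, 0.86 to 1.09 for Klf4 and 0.45 to 1.02 for Klf6. In Exp 2 the corresponding fits gave 2.01 to 2.58 for Klf2, 1.97 to 3.27 for Klf4 and 1.602 to 2.65 for Klf6.

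Exp 2 was then compared with Exp 1 over the 8 assigned libraries with the region as a covariate. The genes were not chosen on this contrast, but the levels in each region were known when they were chosen. Its adjusted p-values are read with that limit. Junb and Ier2 fell, and no other member passed the test. Junb had a mean of 4112 ± 422 CPM in Exp 1 and 2020.2 ± 423 CPM in Exp 2 (SD, n = 4 each), a log2 fold change of -1.06 (SE 0.15, adjusted p = 0.0049 from limma). Ier2 had 1204 ± 325 CPM and 783 ± 121 CPM (SD, n = 4 each), a log2 fold change of -0.62 (SE 0.13, adjusted p = 0.0153 from limma). Both genes were lower in every assigned Exp 2 library than in every Exp 1 library of the same region. The 4 libraries of each experiment hold both regions of its mice, so they are not 4 independent animals. The 2 called members are read beside 10.5% of the 14053 genes tested, of which 5.82% were lower and 4.71% higher in Exp 2.

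No Klf gene passed this test. Klf2 had a log2 fold change of 0.50 (SE 0.25, adjusted p = 0.213 from limma), Klf6 of 0.46 (SE 0.29, adjusted p = 0.3) and Klf4 of 0.00 (SE 0.33, adjusted p = 0.996) between the experiments. Within the midbrain the mean level in Exp 2 was 2.18-fold (Klf2), 1.79-fold (Klf4) and 2.30-fold (Klf6) that in Exp 1, and within the striatum it was 0.834-fold, 0.552-fold and 0.826-fold. In Klf2 and Klf6 both midbrain libraries of Exp 2 were above both of Exp 1, and in Klf4 they were not, because of replicate 3. The remaining immediate early genes had adjusted p between 0.346 (Jun) and 0.91 (Fos).

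With the libraries of a single region, so that each mouse entered once (2 against 2), neither call held. In the midbrain Junb had a log2 fold change of -0.99 (SE 0.22, adjusted p = 0.0581 from limma) and Ier2 of -0.77 (SE 0.15, adjusted p = 0.0504), and in the striatum Junb had -1.10 (SE 0.22, adjusted p = 0.217) and Ier2 -0.42 (SE 0.22, adjusted p = 0.465). In the midbrain Klf2 had a log2 fold change of 1.08 (SE 0.202). The levels in each region were known when the genes were chosen, so single-region values of the members are descriptions. In the midbrain 1 member had an adjusted p under 0.05 (limma), beside 2.18% of 14849 genes, and 5 had an unadjusted p under 0.05. Nothing is read from the single-region counts. In the striatum no member passed (limma), nor did any of 13910 genes (0%), while 4 members had an unadjusted p under 0.05.

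Single libraries also decided the call of Ier2 over both regions. Ier2 had an adjusted p of 0.084 without replicate 1 of the midbrain in Exp 1, 0.0679 without replicate 2 of the midbrain in Exp 1 and 0.051 without replicate 3 of the striatum in Exp 2 (limma), whereas the adjusted p of Junb stayed between 0.0031 and 0.0362 in the 8 fits that each left out 1 library. Without replicate 2 of the striatum in Exp 1, Klf2 (0.76, adjusted p = 0.0277) and Dusp1 (0.60, adjusted p = 0.027) passed as well, which made 4 members. Without both replicate 1 of the midbrain and replicate 3 of the striatum in Exp 2, Junb had an adjusted p of 0.0397 and Ier2 of 0.0984. Between the experiments 8 of 10 endothelial markers also fell, with summed levels of 347 to 456 CPM in Exp 1 and 65.8 to 160.3 CPM in Exp 2, and 3 of 8 monocyte and 5 of 8 neutrophil markers rose. Their part in the change of Junb and Ier2 was not tested.

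**Figure D2:**
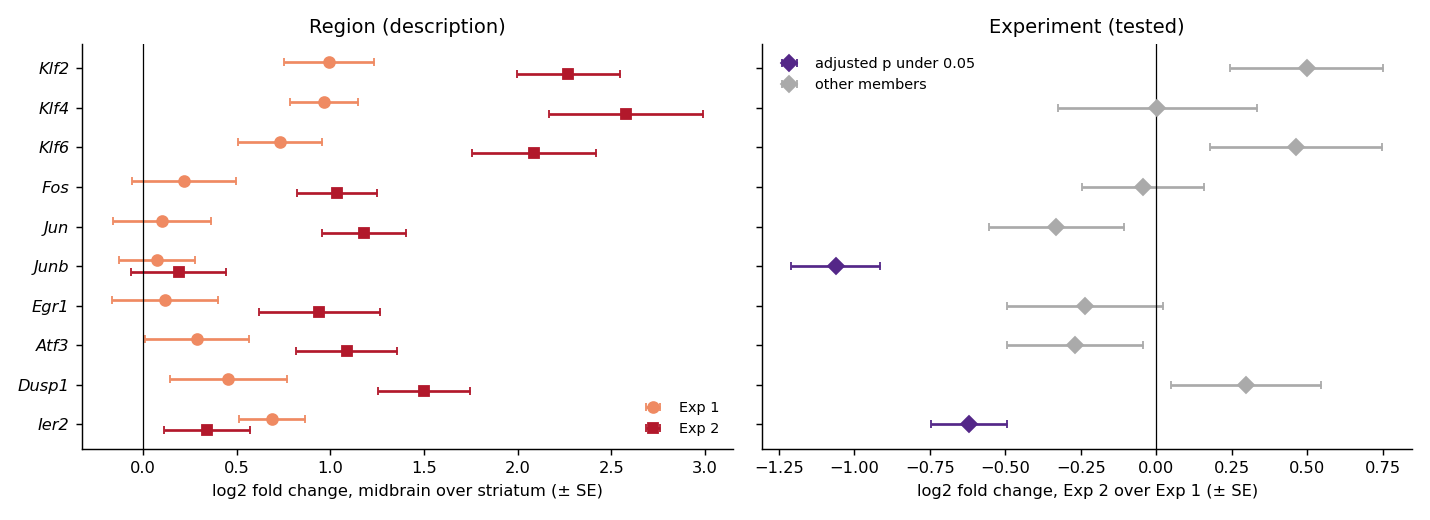
Log2 fold change of each gene on the horizontal axes with its standard error, on the left of midbrain over striatum in Exp 1 (circles) and Exp 2 (squares) and on the right of Exp 2 over Exp 1 over 8 libraries. The Klf genes have the 3 largest regional changes in each experiment, and on the right Junb (-1.06) and Ier2 (-0.62) are the 2 members with an adjusted p under 0.05.

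To ask whether the Klf genes follow the immediate early genes, the mean log2 CPM of the 3 Klf genes was set against that of the 7 immediate early genes over all 10 libraries, without use of the region and centred within each experiment. Pearson's r was 0.89 and Spearman's rho 0.89 (n = 10). The libraries share their regions, experiments and mice, so the values are a description. With the mean of each region and experiment removed, r was 0.65 over the 8 assigned libraries (rho 0.86). The 2 values of each group are then mirror images, so the 8 points carry only 4 independent differences. This limit holds for every value below with group means removed. Without the 2 libraries farthest from the median of the immediate early mean, both striatum libraries of Exp 2, r was 0.67 and rho 0.50 over 8. Within Exp 2, r was 0.92 over 6 libraries. Leaving out each library in turn gave r from 0.85 to 0.93.

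The relation differed between genes. Over the 21 pairs of a Klf and an immediate early gene, r had a median of 0.82 and ranged from 0.20 (Klf6 with Junb) to 0.94 (Klf6 with Atf3). Junb had r of 0.34, 0.34 and 0.20 with Klf2, Klf4 and Klf6, and Ier2 had 0.70, 0.61 and 0.56, while Fos, Jun, Egr1, Atf3 and Dusp1 all lay between 0.76 and 0.94. The 3 pairs among the Klf genes had r of 0.95 to 0.97, and the 21 pairs among the immediate early genes had a median of 0.71. These values carry the regional difference that chose the genes.

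With the mean of each region and experiment removed, over the 8 assigned libraries, the median of the 21 Klf and immediate early pairs was 0.53. Egr1 and Atf3 then had r between 0.75 and 0.95 with the 3 Klf genes, and Jun between 0.53 and 0.93. Dusp1 had 0.36, -0.082 and 0.16 with Klf2, Klf4 and Klf6, Ier2 had 0.58, -0.31 and 0.049, and Fos had 0.76, 0.18 and 0.51. Junb had 0.0093, -0.75 and -0.47. Within groups, then, Dusp1 as well as Ier2 and Junb lay apart from Klf4 and Klf6, and the Klf pairs themselves ranged from 0.55 to 0.93. Each of these r rests on 4 differences between replicates, so they describe these libraries only.

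The Klf level relative to the immediate early level also differed between libraries. The Klf mean minus the immediate early mean, in log2 CPM, was -2.06 and -2.08 in the midbrain and -2.58 and -2.80 in the striatum of Exp 1. In Exp 2 it was -0.71 and -1.50 in the midbrain and -2.52 and -2.49 in the striatum. The 4 assigned striatum libraries lay between -2.80 and -2.49, and every assigned midbrain library was above them. The libraries titled Mdb 2 (-1.89) and Str 2 (-1.78) stood above the midbrain libraries of Exp 1 and below those of Exp 2. By either set of labels, then, a striatum library of Exp 2 was above the midbrain libraries of Exp 1. Within Exp 1, replicate 2 of the striatum had an immediate early mean of 11.14, between those of the midbrain libraries (10.97 and 11.17). Its Klf mean of 8.35 did not reach theirs (8.91 and 9.09).

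Replicates of the same group also moved the gene groups unequally. From replicate 1 to replicate 3 of the midbrain in Exp 2 the Klf mean differed by -0.94 on the log2 scale and the immediate early mean by -0.16, since Egr1 (-1.03) and Atf3 (-0.69) were lower in replicate 3, Fos was near equal (-0.03), and Junb (0.58) and Dusp1 (0.40) were higher. Between the striatum libraries of Exp 1 the difference of replicate 2 from replicate 1 was 0.47 for the Klf mean and 0.68 for the immediate early mean, with every one of the 10 genes higher in replicate 2. In the other groups, the midbrain of Exp 1 and the striatum of Exp 2, both means differed by at most 0.20.

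**Figure D3:**
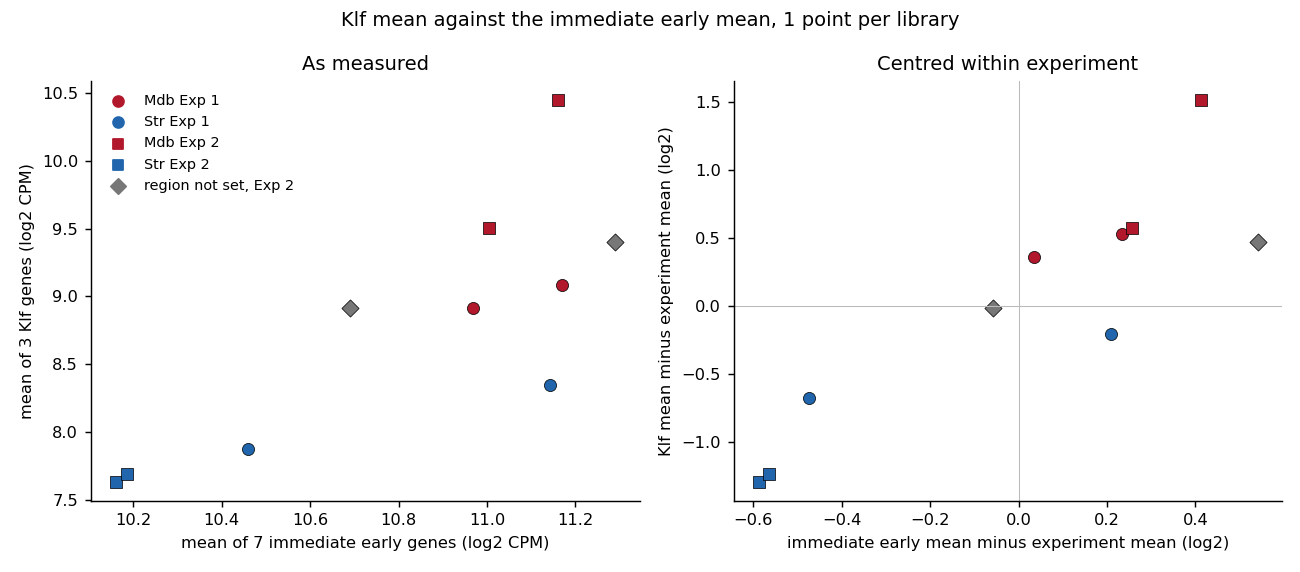
Mean log2 CPM of the 3 Klf genes (vertical) against that of the 7 immediate early genes (horizontal), 1 point per library, as measured on the left and with the mean of each experiment subtracted on the right; symbols as in the plot of levels by library. The Klf mean rises with the immediate early mean (r = 0.89 after centring, n = 10), and at an immediate early mean near 11.1 the midbrain libraries lie above replicate 2 of the striatum in Exp 1.

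Among genes with a mean of at least 20 CPM, the genes most like each Klf gene by r of the centred values over the 10 libraries were ranked. For Klf2 they were Osm (0.97), Il4ra (0.97), Klf6 (0.97), Tcim (0.97) and Hivep2 (0.96). For Klf4 they were Klf10 (0.98), Fosb (0.96), Klf6 (0.96), Ppp1r15a (0.95) and Siah2 (0.95), and for Klf6 they were Tcim (0.99), Fosb (0.98), Klf2 (0.97), Ccrl2 (0.97) and Zswim4 (0.96). The immediate early mean was most like Chd4 (0.97), Egr2 (0.96), Kdm6b (0.96), Specc1l (0.95) and Gem (0.94). On that ranking, of 6838 genes, Klf2 stood at place 20, Klf4 at place 22 and Klf6 at place 43. Seen from the Klf mean, Atf3 was the nearest immediate early member, at place 44 of 6842, and Junb the farthest, at place 1992.

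The 2 libraries whose labels name both regions were read apart. The library titled Mdb 2 had the highest Fos (3839 CPM), Jun (6827 CPM) and Dusp1 (2461 CPM) of all 10 libraries, with 750.2 CPM of Klf2, 546 CPM of Klf4 and 754 CPM of Klf6. The library titled Str 2 had 2806 CPM of Fos, 2636 CPM of Jun and 1522 CPM of Dusp1, with 601, 325 and 574 CPM of the 3 Klf genes. Junb stood at 3798 CPM in the library titled Mdb 2, within the range of Exp 1, and at 2023 CPM in the library titled Str 2. Ier2 had 835 CPM in the former and 1081 CPM in the latter, which was above both striatum libraries of Exp 1. In both, each Klf gene was above all 4 striatum libraries and below both midbrain libraries of Exp 2, except Klf4 in the library titled Mdb 2, which was above replicate 3 of the midbrain. Placed in the regions of their titles, the libraries gave a median log2 fold change of the 10 genes of 1.06 in Exp 2, and placed in the regions of their other labels, 0.61. By the other labels the library titled Mdb 2 is a striatum library, and each Klf gene was higher in it than in the library titled Str 2. The Klf genes then overlapped between the regions in Exp 2. By the titles they did not overlap, but Ier2 did.

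Other immediate early genes were examined from a list of 34 genes, of which 31 passed the filter on low counts. In the fit of midbrain over striatum over both experiments, 4 rose and none fell (limma, adjusted p under 0.05), 26 had a positive log2 fold change, and 20 had an unadjusted p under 0.05, as did 14.6% of all genes tested. The median was 0.73, beside 0.04 over all 14053 genes, of which 1.06% were called (0.975% higher in the midbrain). Fosb, the partner of Jun that is induced with Fos, had 863 and 824 CPM in the midbrain and 324 and 519 CPM in the striatum within Exp 1, then 1689 and 610.5 CPM against 153 and 214 CPM in Exp 2 (log2 fold change 1.73, SE 0.35, adjusted p = 0.042 from limma). Nr4a1, a nuclear receptor of the early response, had 819.9 and 868 CPM against 376 and 652 CPM, and 818 and 727 CPM against 345 and 379 CPM (0.95, SE 0.17, adjusted p = 0.028). For both genes the midbrain libraries exceeded the striatum libraries in each experiment.

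Gadd45b, a stress sensor of the MAP kinase pathway, rose by 1.37 (SE 0.27, adjusted p = 0.0402 from limma), from 112 and 197 CPM in the striatum to 268 and 349 CPM in the midbrain of Exp 1 and from 119 and 73.6 CPM to 503 and 260.1 CPM in Exp 2. Ccn1, a secreted matrix protein, rose by 1.74 (SE 0.33, adjusted p = 0.0362), from 51.0 and 75.6 CPM to 148 and 156 CPM and from 25.8 and 7.01 CPM to 109.7 and 199 CPM. These calls depended on single libraries. Of the 31 genes, none passed without replicate 1 or without replicate 2 of the midbrain in Exp 1, without replicate 1 of the striatum in Exp 1, or without replicate 1 or replicate 3 of the striatum in Exp 2, and 10 passed without replicate 2 of the striatum in Exp 1. None passed without both replicate 1 of the midbrain and replicate 3 of the striatum in Exp 2, the libraries with the most monocyte and neutrophil marker RNA and with the fewest counts.

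The rest of the Klf family did not pass the regional test. Of 14 other family genes, 10 were tested and none had an adjusted p under 0.05 (limma; 3 had an unadjusted p under 0.05), with a median log2 fold change of 0.21; edgeR's quasi-likelihood test also called none, and DESeq2 called 1. Klf10, the gene most like Klf4 by the ranking, had 17.8 and 28.8 CPM in the midbrain and 15.9 and 16.2 CPM in the striatum within Exp 1, then 51.4 and 28.9 CPM against 11.3 and 14.0 CPM in Exp 2. Klf13 fell between the experiments (-0.59, SE 0.15, adjusted p = 0.0349 from limma), with 339 to 362 CPM in Exp 1 and 146 to 295 CPM in the assigned libraries of Exp 2. The summed level of the 14 genes was 732 and 808 CPM in the midbrain and 802 and 768 CPM in the striatum within Exp 1, where the regions overlapped. In Exp 2 it was 726 and 708 CPM against 575 and 484 CPM, where they did not.

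Few regulators of the response passed the test between the regions. Of 8 other dual-specificity phosphatases tested, Dusp5, which inactivates ERK in the nucleus, rose by 1.77 (SE 0.35, adjusted p = 0.041 from limma), with 26.9 and 27.4 CPM in the midbrain and 8.15 and 11.4 CPM in the striatum within Exp 1, then 60.8 and 28.7 CPM against 9.81 and 3.51 CPM in Exp 2. The lowest of these values lies under the level of 3 counts in that library (5.26 CPM). None of 23 upstream kinases and transcription factors passed (limma, 1 with an unadjusted p under 0.05), and their median was -0.013. Between the experiments, Ier3 (-0.89, adjusted p = 0.011), Dusp8 (-0.84, adjusted p = 0.0464) and the kinase gene Rps6ka1 (-0.57, adjusted p = 0.0301) fell, and Zfp36, which encodes an RNA-destabilising protein (0.48, adjusted p = 0.0367), and Crem, a CREB-family factor (0.97, adjusted p = 0.0487), rose (limma). The immediate early list had 1 call in each direction there, so its members did not move one way with Junb and Ier2.

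**Figure D4:**
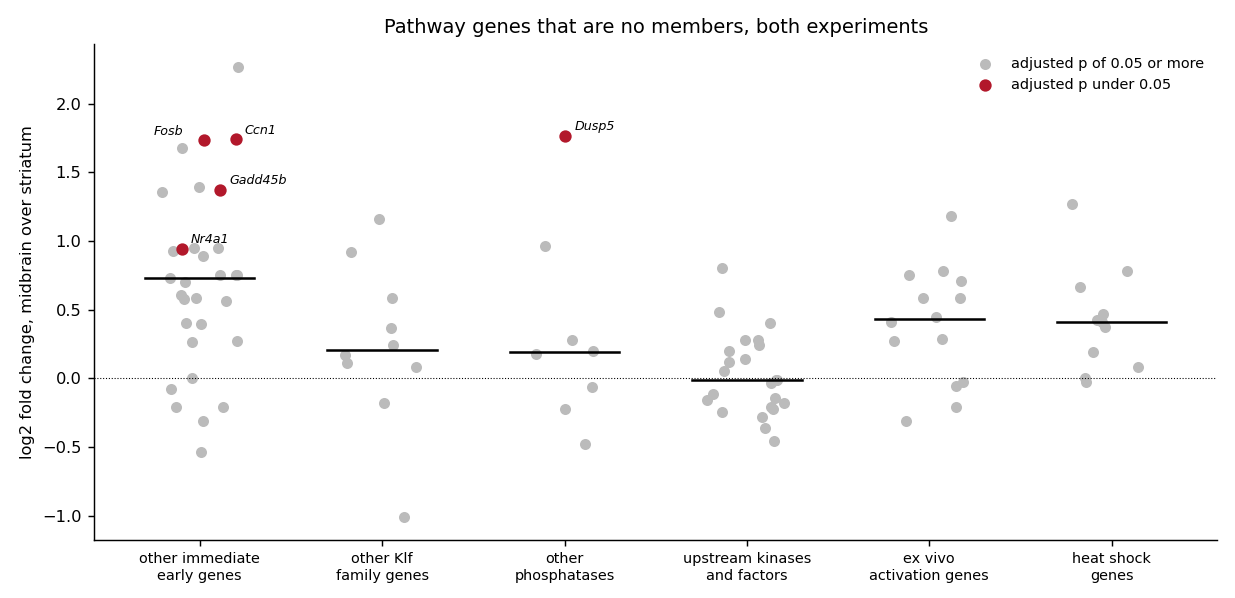
Log2 fold change of midbrain over striatum over both experiments (vertical) of the genes in 6 lists that hold none of the 10 genes, 1 point per gene tested, with list medians as black lines and genes with an adjusted p under 0.05 in red. Red points are Ccn1, Fosb, Gadd45b, Nr4a1 and Dusp5, and the medians are 0.73 for the other immediate early genes and 0.21 for the other Klf genes.

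Genes known to rise in microglia during dissociation, and heat shock genes, were listed beside the immediate early genes. None of 14 ex vivo activation genes and none of 11 heat shock genes passed in the regional fit over both experiments (limma, 6 of each with an unadjusted p under 0.05), with medians of 0.43 and 0.41. In Exp 1 their medians were both 0.07, and no gene of either list had an unadjusted p under 0.01, as 2.09% of all genes did with a higher level in the midbrain. In Exp 2, where the immediate early genes parted, 12 of 14 ex vivo activation genes and 11 of 11 heat shock genes had a positive log2 fold change, with medians of 0.87 and 0.67, and 5 and 2 of them had an unadjusted p under 0.01, beside 2.88% of all genes. Hspa1a, a chaperone gene on both lists that was named after its values were seen, was the only one to pass after adjustment (1.90, SE 0.28, adjusted p = 0.0187 from limma). Summed heat shock levels were 2128 and 3462 CPM in the midbrain and 1854 and 4537 CPM in the striatum within Exp 1, then 4696 and 5583 CPM against 2872 and 2526 CPM in Exp 2. They overlapped in Exp 1 and did not in Exp 2, as the immediate early genes other than Ier2 and Junb did. Over the 10 libraries the mean of the heat shock list had r of 0.81 with the immediate early mean and 0.67 with the Klf mean, and the ex vivo activation list had 0.88 and 0.67. With group means removed the values were 0.88 and 0.41 for heat shock and 0.92 and 0.44 for ex vivo activation. Hsp90aa1, a chaperone gene on both lists, rose between the experiments (0.68, SE 0.19, adjusted p = 0.0416 from limma).

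Markers of other cells that bind CD11b beads moved with the region, and so with the Klf genes. In the fit over both experiments all 8 monocyte markers had a positive log2 fold change and 3 were called (limma). The counts were 7 of 8 with 5 called for neutrophils and 8 of 8 with 6 called for border macrophages. Over all 14053 genes 54.4% were positive and 0.975% were called higher in the midbrain. All 8 oligodendrocyte markers were positive as well, with none called and a median of 0.22. Summed neutrophil markers were 877 to 1121 CPM in the midbrain and 707 to 772 CPM in the striatum within Exp 1, then 3270.4 to 6515 CPM against 892 to 931 CPM in Exp 2. Summed border macrophage markers were 1846 to 2188 CPM against 959.7 to 1340.0 CPM and 2537 to 3049 CPM against 622 to 700.2 CPM. No marker of these lists was at 0 in all libraries, and the gene F13a1 stands on both the monocyte and the border macrophage list. The mean of the monocyte list had r of 0.77 with the Klf mean and 0.45 with the immediate early mean over the 10 libraries, the neutrophil list had 0.73 and 0.40, and the border macrophage list had 0.68 and 0.46. With the mean of each region and experiment removed, r with the Klf mean was 0.75 for monocytes, -0.20 for neutrophils and -0.28 for border macrophages.

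Microglia markers moved the other way. Their sums were 15891 and 17805 CPM in the midbrain and 23179 and 23566 CPM in the striatum within Exp 1, then 16043 and 18685 CPM against 23793 and 28246 CPM in Exp 2, without overlap in either. None of the 11 had a positive log2 fold change over both experiments, 2 fell (limma, adjusted p under 0.05, beside 0.0854% of all genes that were lower in the midbrain), 9 had an unadjusted p under 0.05 and the median was -0.62. The mean of the list had r of -0.63 with the Klf mean and -0.31 with the immediate early mean, and -0.67 and -0.076 with group means removed. The part of these lists in the regional difference of the Klf genes was not tested.

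The library titled Mdb 2, whose labels conflict, had the lowest summed monocyte markers of all 10 (150.2 CPM) and 633 CPM of border macrophage markers, near the lowest value. Its microglia marker sum was 27532 CPM, within the range of the assigned striatum libraries (23179 to 28246 CPM) and above every assigned midbrain library. Its Klf2, Klf4 and Klf6 levels were above those of every assigned striatum library, and its immediate early mean was the highest of all (11.29). The library titled Str 2, whose labels also conflict, had 1189 CPM of monocyte, 2797 CPM of neutrophil and 2074 CPM of border macrophage markers. Its microglia marker sum, 14186 CPM, was the lowest of all 10. Its Klf levels, which summed to 1500 CPM, were also above those of every assigned striatum library. Which label of these 2 libraries is right was not tested. Replicate 1 of the midbrain in Exp 2 had both the highest monocyte and neutrophil sums and the highest Klf levels, and without it the log2 fold changes of midbrain over striatum over both experiments were 1.36 for Klf2, 1.30 for Klf4 and 1.04 for Klf6, against 1.604, 1.69 and 1.39 with it. Markers of endothelium, which also expresses Klf2 and Klf4, had summed levels of 347 and 433 CPM in the midbrain and 456 and 413 CPM in the striatum of Exp 1. In Exp 2 they were 160.3 and 88.4 CPM against 65.8 and 85.9 CPM, so the regions overlapped in Exp 1 and the midbrain was above the striatum in Exp 2. Over the 10 libraries the endothelial list had r of 0.76 with the Klf mean and 0.69 with the immediate early mean. With group means removed these were 0.54 and -0.16. A list of 8 T and NK cell markers, of which 4 passed the filter on low counts, had 0.82 and 0.61, and 0.39 and 0.44 with group means removed.

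**Figure D5:**
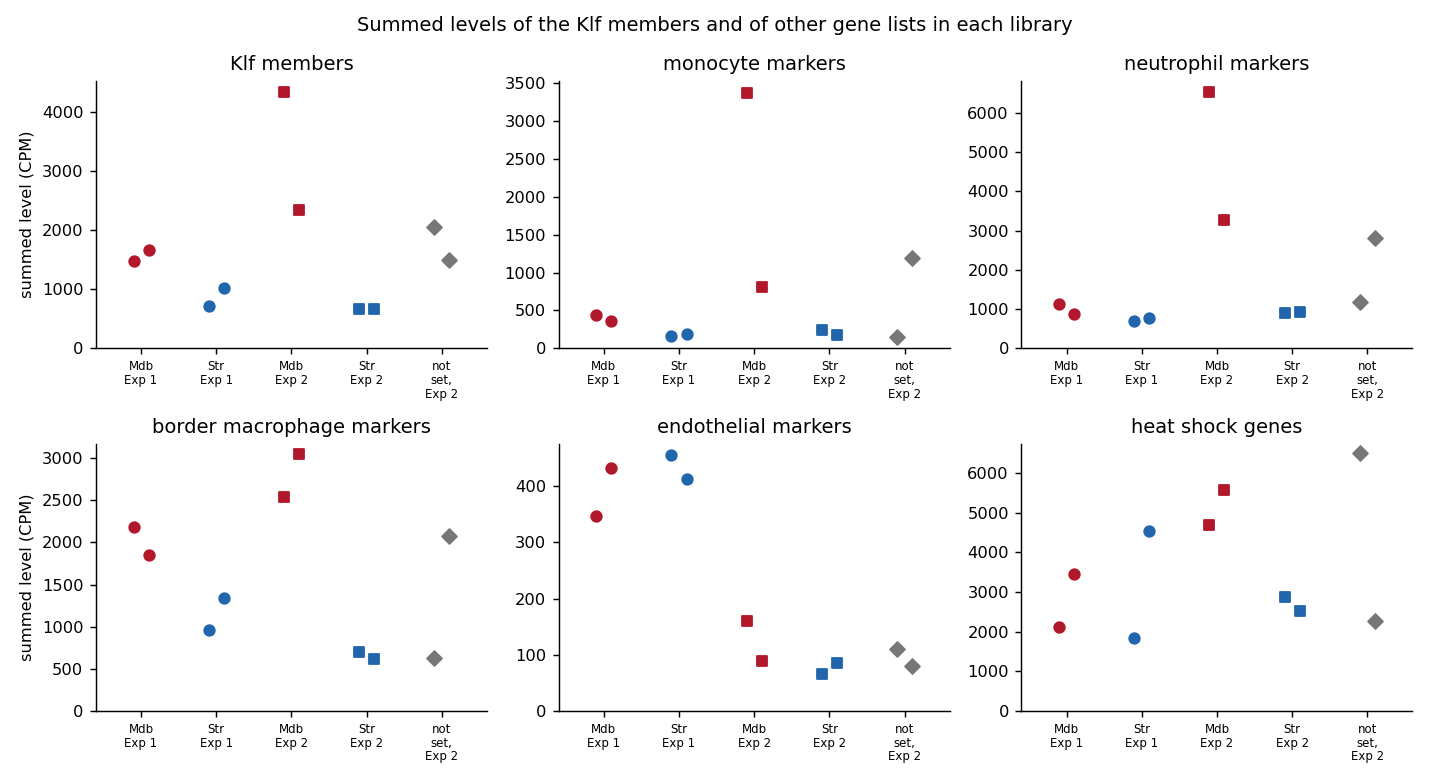
Summed level (vertical axes from 0, CPM) of the 3 Klf genes and of 5 other gene lists in each of the 10 libraries; symbols as in the plot of levels by library. The Klf sum is highest in replicate 1 of the midbrain in Exp 2, as are the monocyte and neutrophil sums. The library titled Mdb 2 (left grey diamond) has a Klf sum of 2050.0 CPM with the lowest monocyte sum (150.2 CPM). The library titled Str 2 (right grey diamond) has a Klf sum of 1500 CPM with a monocyte sum of 1189 CPM.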

How the data were processed

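Poly-A RNA of CD11b-purified microglia was sequenced with MARS-seq. The authors mapped reads with STAR 2.5.3a (GRCm38), counted them over Gencode M17 exons with featureCounts 1.6.0, strand unused, and deposited raw read counts of 53715 genes for each of 10 libraries. Symbols were matched to 53620 identifiers. Replicates were the libraries the labels number within a region and experiment, and each pair differed by more than sampling noise (chi-square of 5.58 to 23.1 per degree of freedom over genes). The 2 regions were taken from the same mice, but no label ties a library to its mouse, so p-values over both regions measure the spread between these samples and not between mice.

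From the counts, TMM factors (edgeR 4.0.16) and voom, lmFit and eBayes (limma 3.58.1, R 4.3.3) were computed, with genes under 6 counts in more than 50% of libraries left out. Within experiments the region was fitted alone, and over the 8 assigned libraries with the experiment as a covariate, with Benjamini-Hochberg adjustment over all genes and a threshold of 0.05. Each comparison had 2 libraries per group. Log2 CPM for correlations used a prior count of 2, and SD and SE cover these samples only. The smallest library limits precision, since 3 counts are 5.26 CPM there and 0.358 CPM in the largest.

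The 10 genes and all lists were chosen with earlier results of these data known. Named genes are the 10, genes of the other lists that were called over both experiments, and the 5 most alike in pattern. On simulated counts the fit recovered 48 of 100 genes changed 1 unit of log2 between regions and 100 of 100 changed 2 units, and called 0.0866% of unchanged genes. Alternatives were library size scaling, edgeR's quasi-likelihood test, DESeq2 1.42.0, the replicate number as a block, no filter, a minimum of 10 counts per library, both placements of the 2 libraries with conflicting labels leaving out each library and, added after seeing the data, the contrast between experiments within each region. Promoter sequences were taken from RefSeq (GRCm38.p6). One gene of the microglia marker list is not reported here and was left out of its sum.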

Additional observations from a re-analysis of the deposited data

How the results depend on the processing

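The median log2 fold change of the 10 genes kept its sign in every alternative except that without replicate 1 of the striatum in Exp 1, and without single libraries it ranged from -0.092 to 0.76 in Exp 1, from 1.03 to 1.45 in Exp 2 and from 0.55 to 0.92 over both experiments. With the 2 libraries of conflicting labels placed by their other label, the Exp 2 median was 0.61 and Junb was lower in the midbrain (-0.12). The count of other immediate early genes called between regions was 4, and it was 7 with edgeR's quasi-likelihood test, 12 with DESeq2, 7 without a filter, 2 with at least 10 counts in every library, 8 with the replicate block, and 0 with the conflicting libraries placed by title or without replicate 1 of the midbrain and replicate 3 of the striatum in Exp 2, a setting chosen after seeing the data. Leaving out single libraries gave 0 to 10. The count of other Klf genes was 0 in all settings but DESeq2, with 1. The count of members called between experiments was 2, 1 with the placement by title, without the latter pair of libraries or with midbrain libraries only, 0 with striatum libraries only (both single-region fits chosen after seeing the data), and 1 to 4 over the fits without single libraries. The correlation of the Klf mean with the immediate early mean (0.89) was 0.65 with group means removed, 0.80 without centring, 0.92 in Exp 2 only, 0.67 without the 2 farthest libraries, 0.93 over assigned libraries only (chosen after seeing the data), and 0.85 to 0.93 without single libraries. The cause of these changes was not tested.

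The replicate numbers were not taken to pair the libraries, since no label says that they mark the mouse and the deviations of same-numbered libraries were correlated at -0.037 (Exp 1) and 0.081 (Exp 2). With the replicate block the medians were 0.37, 1.16 and 0.67, and apart from the 8 genes above no count changed. The contrast between experiments has no value with the block, which absorbs it.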
